A study of Mus musculus with 2 samples.

Results

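The peroxiredoxin and thioredoxin system was described here through 10 genes, taken by symbol from the 16614 genes listed in both libraries: the peroxiredoxins Prdx1 to Prdx6, the thioredoxins Txn1 and Txn2, the thioredoxin reductase Txnrd1 and the sulfiredoxin Srxn1. All 10 were found and all were measured, meaning at least 1 FPKM (fragments mapped per kilobase, relative to sequencing depth) in at least 1 library. The series holds 1 library from Foxo3 KO cells and 1 from WT cells. In both, C57BL/6 bone marrow from femur and tibia was grown for 3 days with M-CSF, which yields bone marrow macrophages, and then given RANKL, the osteoclast-inducing cytokine, for 2 days. The labels give neither the allele behind the knockout nor whether it is confined to certain cells, and they give neither the age nor the number of mice. Whether marrow was pooled is not given in the sources used here. With 1 library per genotype there is no replicate check, so no SD, p-value or interval is given and every difference describes these 2 libraries only.

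Peroxiredoxins are abundant enzymes that destroy hydrogen peroxide with a reactive cysteine. The thioredoxins return most of them to the active, reduced state, thioredoxin reductase recharges thioredoxin with electrons from NADPH, and sulfiredoxin rescues peroxiredoxins whose cysteine has been overoxidised. In osteoclast precursors peroxide made by NADPH oxidase and by mitochondria serves as a signal downstream of RANKL. FoxO factors are known for raising antioxidant genes, and in human cells FOXO3 is known to activate PRDX3.

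The targeted gene Foxo3 stood at 0.548 FPKM in the Foxo3 KO library, against 10.3 FPKM in the WT library, 5.33% of the WT value. Defining markers of the labelled cell type were present: the macrophage genes Cd68 and Csf1r stood at 1546 and 695 FPKM in the Foxo3 KO library, against 1573 and 697 FPKM in the WT library. These were among the flattest of the 10 macrophage markers listed, of which 9 had a lower value in the Foxo3 KO library, with Lyz2, the most abundant, at 5674 FPKM in the Foxo3 KO library, against 7501 FPKM in the WT library. The osteoclast enzyme genes Acp5 and Ctsk stood at 8636 and 6862 FPKM in the Foxo3 KO library, against 7737 and 6106 FPKM in the WT library. Of the 10 osteoclast markers listed 7 had a higher value in the Foxo3 KO library and 3 a lower one. Differences are given as the log2 ratio, log2(Foxo3 KO + 1) minus log2(WT + 1) on the FPKM scale, which is positive where the Foxo3 KO library was higher. Across the 10003 measured genes its median was 0.03, and from the 5th to the 95th percentile of genes it ran from -0.29 to 0.26.

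The data show a system that was abundant in both libraries and that differed between them in a few members. Prdx1 and Prdx4 were lower in the Foxo3 KO library, at 74.5% and 73.3% of their WT levels. The other 8 genes lay within a ratio of 5 to 4, a log2 ratio of 0.32 in size, and none of the 10 reached 2-fold. The level of the 10 genes ran from 30.1 FPKM (Prdx4) to 561 FPKM (Prdx1) in the Foxo3 KO library and from 41.0 FPKM (Prdx4) to 753 FPKM (Prdx1) in the WT library. In both libraries the order of level began with Prdx1, Txn1, Prdx2 and Txn2 and ended with Prdx6, Srxn1 and Prdx4, while the order of Prdx3, Prdx5 and Txnrd1 in between differed. There are no replicates to set neighbours in this order against.

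**Figure D1:**
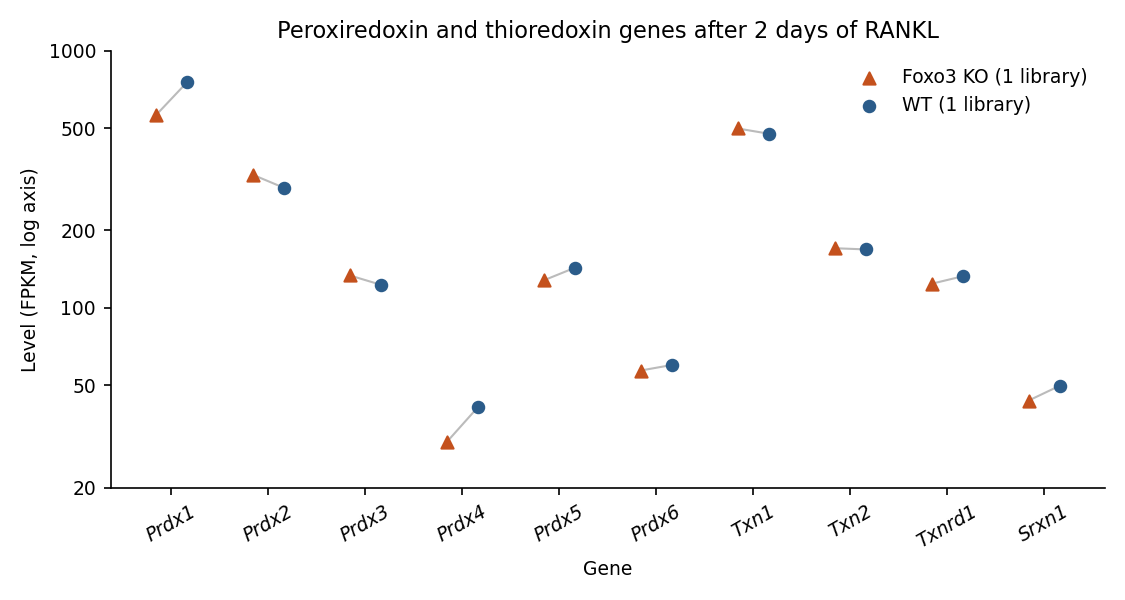
Level of each of the 10 genes, in FPKM on a log axis, in the Foxo3 KO library (triangles, left) and the WT library (circles, right), with 1 library per genotype and a grey line joining the pair. Prdx1 (561 against 753 FPKM) and Prdx4 (30.1 against 41.0 FPKM) have the steepest lines.

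Prdx1, the most abundant peroxiredoxin of the cytosol and nucleus, lies on chromosome 4 (116685544 to 116700822, + strand, mm10, ENSMUSG00000028691.12). Prdx1 stood at 561 FPKM in the Foxo3 KO library, against 753 FPKM in the WT library, a log2 ratio of -0.42. The difference of -192 FPKM, Foxo3 KO minus WT, was the widest of the 10 genes on the FPKM scale, and Prdx1 ranked 166th of all listed genes by level in the Foxo3 KO library and 115th in the WT library. Of the measured genes 2.28% had a lower log2 ratio than Prdx1.

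Prdx2, its close relative in the cytosol and a major protein of red blood cells (chromosome 8, 84969587 to 84974834, + strand), stood on the other side of 0, at 329 FPKM in the Foxo3 KO library, against 293 FPKM in the WT library, with a log2 ratio of 0.17. Within a library the level of Prdx1 over that of Prdx2 was 1.70 in the Foxo3 KO library and 2.57 in the WT library, a comparison that no scaling between libraries can move. In the annotation 173 bases of Prdx2 exons are shared with exons of Junb, an AP-1 gene on the opposite strand, and 177 bases with those of Rnaseh2a, at 10.2 FPKM in both libraries. Junb stood at 145.6 FPKM in the Foxo3 KO library, against 101.5 FPKM in the WT library, so it was higher in the same library as Prdx2. Whether the counting used strand is not given in the sources used here, and the part of Junb reads in the Prdx2 value was not tested. Erythroid markers, of the cells richest in Prdx2, were at or near 0: 7 of the 11 listed were found, none was measured, the globin genes Hbb-b1 and Hbb-b2 and the anion exchanger gene Slc4a1 were at 0 in both libraries, and the summed level of the 7 was 0.491 FPKM in the Foxo3 KO library, against 0.614 FPKM in the WT library.

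Prdx6 (chromosome 1, 161240112 to 161251219, - strand), which has a single active cysteine, works with glutathione and also acts as a phospholipase, stood at 57.0 FPKM in the Foxo3 KO library, against 59.9 FPKM in the WT library, with a log2 ratio of -0.07. Prdx6b, its near copy on chromosome 2, was listed at 0 in both libraries. Pseudogenes named after Prdx1, Prdx2, Prdx6 and thioredoxin are annotated in RefSeq and were not analysed here, so reads that fit both a gene and its copy may be counted with the gene.

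Prdx4, the peroxiredoxin of the endoplasmic reticulum, where it passes the oxidising power of peroxide to protein disulfide isomerases, lies on chromosome X (155323918 to 155340754, - strand). Prdx4 stood at 30.1 FPKM in the Foxo3 KO library, against 41.0 FPKM in the WT library, the lowest log2 ratio of the 10 genes at -0.44. Of the measured genes 2.11% had a lower ratio. Its level relative to that of P4hb, a disulfide isomerase of the same compartment chosen here after its value was seen, was 0.100 in the Foxo3 KO library and 0.135 in the WT library. Prdx1 over Prdx4 was 18.7 in the Foxo3 KO library and 18.4 in the WT library, which follows from the near-equal log2 ratios of both genes.

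**Figure D2:**
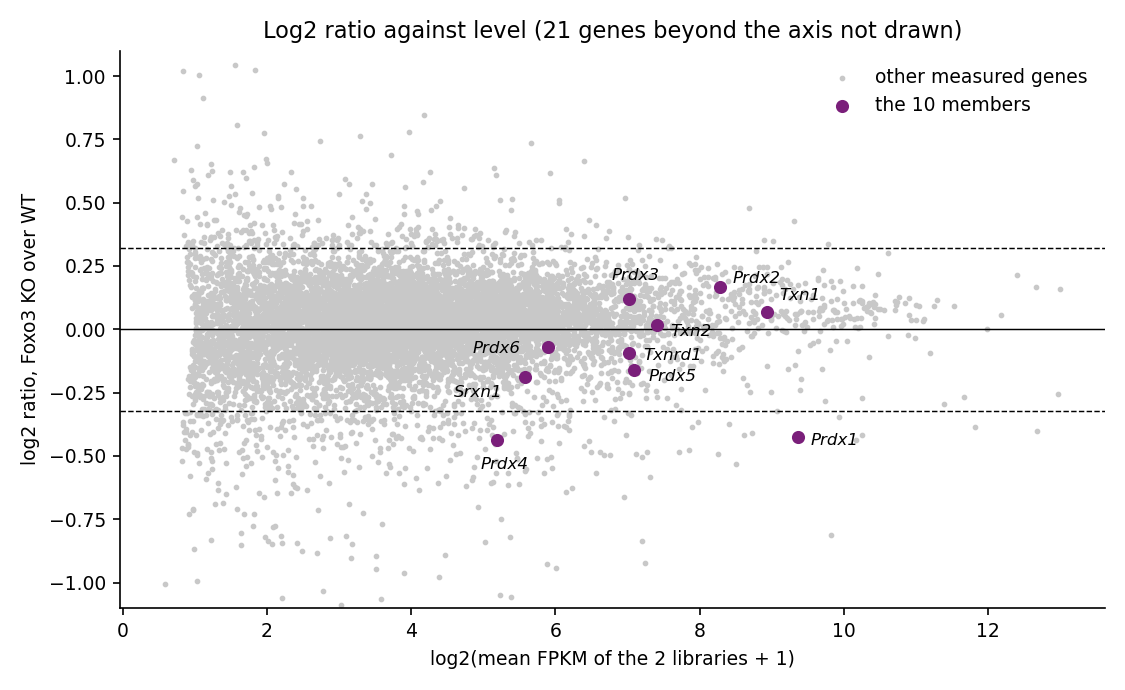
Log2 ratio of Foxo3 KO over WT (vertical) against log2 of the mean FPKM of the 2 libraries plus 1 (horizontal) for each measured gene, with the 10 members in purple, dashed lines at a ratio of 5 to 4, and 21 genes beyond the axis left out. Prdx1 (-0.42) and Prdx4 (-0.44) lie below the lower dashed line, and the other 8 lie between the lines.

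Of the 10 genes, 2 were lower by a ratio of 5 to 4 or more, Prdx1 and Prdx4, where 4.16% of all measured genes and 3.39% of the 6165 genes at 10 FPKM or more in at least 1 library passed the same bound. None was higher by that ratio, against 2.96% of the measured genes and 2.21% of those at 10 FPKM or more. None was 2-fold higher or 2-fold lower, as 0.120% and 0.200% of the measured genes were. The log2 ratio was above 0 for 4 of the 10 and below 0 for 6, while 57.6% of the measured genes lay above 0 and 42.4% below. The median of the 10 was -0.08, beside 0.03 for all measured genes. These counts describe genes chosen with earlier results of these data known.

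The mitochondrial members summed to nearly the same level in both libraries. Prdx3, Prdx5 and Txn2 summed to 432 FPKM in the Foxo3 KO library, against 435 FPKM in the WT library, 99.4% of it. Prdx3, the peroxiredoxin found only in mitochondria (chromosome 19, 60864051 to 60874556, - strand), stood at 133.7 FPKM in the Foxo3 KO library, against 123.0 FPKM in the WT library, a log2 ratio of 0.12. Whether Foxo3 acts on Prdx3 in these cells was not tested.

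Prdx5, which is found in mitochondria, peroxisomes and the cytosol (chromosome 19, 6906697 to 6910106, - strand), stood at 127.9 FPKM in the Foxo3 KO library, against 143.1 FPKM in the WT library, a log2 ratio of -0.16. The order of the pair differed: Prdx3 over Prdx5 was 1.05 in the Foxo3 KO library and 0.859 in the WT library. Exons of Prdx5 share 409 bases with those of Trmt112, a methyltransferase partner gene on the opposite strand that stood at 55.2 FPKM in the Foxo3 KO library, against 47.8 FPKM in the WT library, and the part of Trmt112 reads in the Prdx5 value was not tested. Txn2, the mitochondrial thioredoxin that recharges Prdx3 (chromosome 15, 77915047 to 77929006, - strand), stood at 170.6 FPKM in the Foxo3 KO library, against 168.8 FPKM in the WT library. Its log2 ratio of 0.02 was -0.01 under both alternative scalings, so it has no direction. Txnrd2, the reductase of the same compartment, stood at 14.3 FPKM in the Foxo3 KO library, against 13.2 FPKM in the WT library, with a log2 ratio of 0.11.

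The reducing arm of the cytosol showed small ratios. Txn1, the cytosolic thioredoxin (chromosome 4, 57943373 to 57956411, - strand), stood at 499 FPKM in the Foxo3 KO library, against 476 FPKM in the WT library, with a log2 ratio of 0.07. Txnrd1, the selenoprotein that recharges it (chromosome 10, 82833951 to 82897712, + strand), stood at 124.1 FPKM in the Foxo3 KO library, against 132.6 FPKM in the WT library, with a log2 ratio of -0.10. Txn1 over Txnrd1 was 4.02 in the Foxo3 KO library and 3.59 in the WT library, and Prdx1 over Txn1 was 1.13 in the Foxo3 KO library and 1.58 in the WT library. The cytosolic peroxiredoxin and its reductant were thus closer in level in the Foxo3 KO library. Txnip, the arrestin-like protein that binds and inhibits thioredoxin, stood at 113 FPKM in the Foxo3 KO library, against 143 FPKM in the WT library, a log2 ratio of -0.33 that lies just past 5 to 4.

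Srxn1, sulfiredoxin (chromosome 2, 152105516 to 152111376, + strand), stood at 43.6 FPKM in the Foxo3 KO library, against 49.7 FPKM in the WT library, with a log2 ratio of -0.19. Of the measured genes 10.2% had a lower ratio. Prdx1 over Srxn1 was 12.9 in the Foxo3 KO library and 15.1 in the WT library, so the enzyme that rescues overoxidised Prdx1 differed less between the libraries than its substrate. Of the 10 genes, 9 kept the sign of their log2 ratio under all 5 alternatives, and Txn2 was the exception. A change of pseudocount cannot turn a sign, and the 2 scalings are nearly the same small shift. Only a ratio close to 0 could thus have turned under these 4 alternatives.

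NRF2, the transcription factor that answers oxidative stress, is known to bind the antioxidant response element (ARE), and Prdx1, Txnrd1 and Srxn1 are textbook targets of it. RefSeq promoter windows on GRCm38.p6 (the mm10 assembly), from 250 bases before a start site to 50 after it, were matched by symbol for 9 of the 10 genes, in 11 windows since Txnrd1 has more than 1 start site. 3 motifs were searched on both strands: the ARE core TGACNNNGC, the AP-1 site TGACTCA and the FoxO site GTAAACA. The windows shown are those of the pair that was lower, Prdx1 and Prdx4, and of the other genes with an ARE match. Each runs 5′ to 3′ on the gene's strand, and capitals mark bases in a motif match.

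Prdx1 (chr4:116685349-116685648, + strand): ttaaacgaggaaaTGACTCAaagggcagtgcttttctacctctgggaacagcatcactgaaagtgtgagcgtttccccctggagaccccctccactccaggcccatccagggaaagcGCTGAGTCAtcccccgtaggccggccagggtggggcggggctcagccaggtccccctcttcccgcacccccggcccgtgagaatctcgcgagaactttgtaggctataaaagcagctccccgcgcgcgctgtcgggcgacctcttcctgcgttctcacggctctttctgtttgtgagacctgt
Prdx4 (chrX:155338411-155338710, - strand): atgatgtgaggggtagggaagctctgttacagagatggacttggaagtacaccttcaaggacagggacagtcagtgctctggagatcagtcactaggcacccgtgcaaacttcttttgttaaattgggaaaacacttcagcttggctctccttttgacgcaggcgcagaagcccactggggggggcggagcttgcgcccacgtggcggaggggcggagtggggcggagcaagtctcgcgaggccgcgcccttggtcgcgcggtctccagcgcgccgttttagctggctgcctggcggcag
Srxn1 (chr2:152105274-152105573, + strand): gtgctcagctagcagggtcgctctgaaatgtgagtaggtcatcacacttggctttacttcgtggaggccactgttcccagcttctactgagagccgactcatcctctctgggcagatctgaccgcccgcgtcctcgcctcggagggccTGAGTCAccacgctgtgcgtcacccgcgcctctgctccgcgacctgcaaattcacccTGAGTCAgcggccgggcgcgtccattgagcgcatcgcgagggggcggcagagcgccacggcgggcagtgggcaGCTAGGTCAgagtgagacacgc
Txnrd1 (chr10:82858956-82859255, + strand): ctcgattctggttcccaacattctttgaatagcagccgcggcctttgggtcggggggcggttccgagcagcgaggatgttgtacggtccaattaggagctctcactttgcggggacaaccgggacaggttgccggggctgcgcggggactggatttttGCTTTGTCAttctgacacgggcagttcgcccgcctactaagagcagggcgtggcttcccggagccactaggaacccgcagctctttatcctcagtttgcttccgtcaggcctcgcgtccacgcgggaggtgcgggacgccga

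The ARE core was found in 3 of the 11 windows, each of another gene, against 12.4% of 32544 distinct promoter windows of this length. In Prdx1 it lies at positions -133 to -125 from the start site and shares bases with an AP-1 match at -131 to -125, and a further AP-1 match lies at -237 to -231. Srxn1 has AP-1 matches at -102 to -96 and at -45 to -39 and an ARE match just past the start, at 29 to 37. The 2nd Txnrd1 window has an ARE match at -92 to -84. AP-1 letters were thus found in Prdx1 and Srxn1 and in 5.19% of all windows. The Prdx4 window held none of the 3 motifs, and the FoxO letters, present in 3.66% of all windows, were in none of the 11. The Prdx4 window follows the RefSeq start site and lies inside the gene bounds given above. The 5′ end of those bounds, at 155340754, was not searched. The genes with ARE letters had log2 ratios of -0.42 (Prdx1), -0.19 (Srxn1) and -0.10 (Txnrd1). Of the genes whose windows lack them, Prdx4 had the lowest ratio at -0.44 and Prdx5 was at -0.16, below Txnrd1. Prdx2, Prdx3, Txn1 and Txn2, which lack them too, were at 0.17, 0.12, 0.07 and 0.02. The other Txnrd1 windows held no match, and which start site these cells use was not tested. Whether a motif bears on any ratio was not tested. A match shows letters only, and its absence here says nothing of sites elsewhere. Only the exact letters given were searched, so other forms of these motifs within the windows are not marked.

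**Figure D3:**
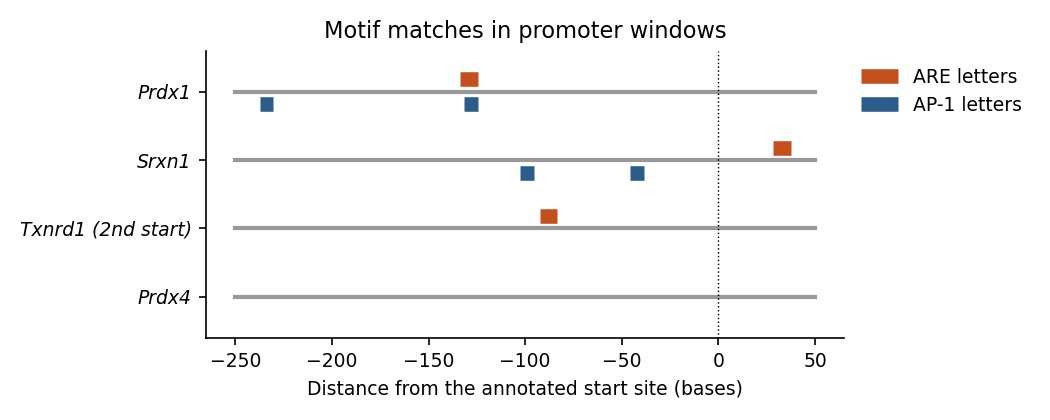
Positions of ARE matches (orange, above each line) and AP-1 matches (blue, below) along promoter windows of 4 genes, in bases from the annotated start site (dotted line). Prdx1 has overlapping ARE and AP-1 matches at -133 to -125, and the Prdx4 window is empty.

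The summed level of the 6 peroxiredoxins was lower in the Foxo3 KO library, at 1239 FPKM, against 1413 FPKM in the WT library, 87.7% of it. Prdx1 had the widest difference, and the other 5 summed to 678 FPKM in the Foxo3 KO library, against 660 FPKM in the WT library. That sum nets differences of both signs, Foxo3 KO minus WT. Prdx2 and Prdx3 were higher, by 36.3 and 10.7 FPKM, while Prdx4, Prdx5 and Prdx6 differed by -11.0, -15.2 and -2.89 FPKM. The share of Prdx1 in the sum was 45.3% in the Foxo3 KO library and 53.3% in the WT library. The share of Prdx2 was 26.6% in the Foxo3 KO library and 20.7% in the WT library, and that of Prdx3 was 10.8% in the Foxo3 KO library and 8.70% in the WT library. Prdx4 made up 2.43% in the Foxo3 KO library and 2.90% in the WT library, and the shares of Prdx5 and Prdx6 were higher in the Foxo3 KO library by 0.195 and 0.364 percentage points.

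**Figure D4:**
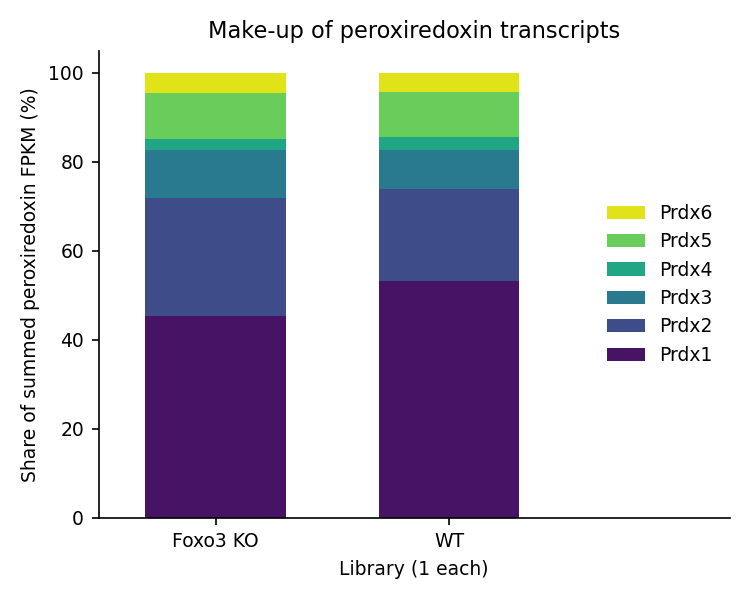
Share of each peroxiredoxin in the summed FPKM of the 6 (percent, stacked) in the Foxo3 KO library (left) and the WT library (right), 1 library each. Prdx1 forms 45.3% of the Foxo3 KO bar and 53.3% of the WT bar.

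The wider redox pathway was described by 8 further lists, with 107 of 111 entries found. The list whose ratios lay lowest was that of NRF2, its regulators and its known targets, with a median of -0.17. In it 18 of 22 measured genes had a log2 ratio below 0. Lower by 5 to 4 or more were 7, or 5 with a pseudocount of 5 FPKM, and none was higher by it. Of all measured genes 42.4% lay below 0, 4.16% were lower by 5 to 4 or more and 2.96% higher, with a median of 0.03. Hmox1, which opens the haem ring, was at 103.5 FPKM in the Foxo3 KO library, against 197.3 FPKM in the WT library (-0.92). Blvrb, a biliverdin reductase, had a log2 ratio of -0.49 and Ephx1, an epoxide hydrolase, one of -0.40. The list holds haem and ferritin genes as well as redox enzymes, and Nfe2l2, the gene of NRF2 itself, chosen after its value was seen, stood at 62.0 FPKM in the Foxo3 KO library, against 71.0 FPKM in the WT library.

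Among the other thioredoxin-fold genes 12 of 16 measured genes had a ratio above 0, 10 and 9 under the alternative scalings, with a median of 0.06. Of all 10003 measured genes 57.6% lay above 0 and 42.4% below, with 5181 and 5001 above 0 under the same scalings. Lower by 5 to 4 or more were 4.16% of them. Txnip and, chosen after its value was seen, Txndc16 (5.96 FPKM in the Foxo3 KO library, against 8.60 FPKM in the WT library) were lower by 5 to 4 or more. Neither passed with a pseudocount of 5 FPKM, and Txndc16 does not reach a minimum of 10 FPKM. Tmx2, a membrane-bound relative of thioredoxin, had a ratio of 0.17. Of the glutaredoxins, methionine sulfoxide reductases and sestrins, 5 of 9 measured genes had a ratio below 0, and Sesn1, a sestrin known as a FoxO target, was the 1 gene past 5 to 4, at 56.2 FPKM in the Foxo3 KO library, against 73.6 FPKM in the WT library (-0.38). Glrx and Msrb1 had ratios of -0.24 and -0.07. Endoplasmic reticulum folding enzymes, the partners of Prdx4, had a ratio below 0 in 9 of 13 cases, 11 under either scaling, and a median of -0.08. None of those 13 passed 5 to 4, with Txndc5, Pdia6 and Pdia4 at -0.22, -0.19 and -0.18, so Prdx4 at -0.44 lay below all of them.

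Enzymes that supply NADPH, the electron source of thioredoxin reductase, had a ratio above 0 in 6 of 10 cases, near the 57.6% of all measured genes. Of all measured genes 2.96% were higher by 5 to 4 or more and 4.16% were lower. The same shares stand beside the counts of the next lists. Pgls and Aldh1l1 were higher by 5 to 4 or more, with ratios of 0.37 and 0.35, though with a pseudocount of 5 FPKM only 1 of the list was. G6pdx, the entry enzyme of the pentose phosphate pathway, stood at 55.5 FPKM in the Foxo3 KO library, against 66.1 FPKM in the WT library (-0.25). Among subunits of NADPH oxidase, the source of peroxide, 4 of 7 had a ratio above 0 but only 2 under either scaling. Cybb, the catalytic subunit, stood at 70.0 FPKM in the Foxo3 KO library, against 96.7 FPKM in the WT library (-0.46), while Rac2 and Ncf4 were both at 0.22. Selenoproteins and their synthesis factors split 9 above 0 and 8 below. Sepp1, selenoprotein P, stood at 656 FPKM in the Foxo3 KO library, against 1154 FPKM in the WT library (-0.81), and Gpx3, chosen after its value was seen, was the other gene past 5 to 4 (-0.36). The list had 1 such gene with a pseudocount of 5 FPKM or a minimum of 10 FPKM, while Sepn1 and Pstk were at -0.27 and 0.23. Of 5 thioredoxin clients, 4 had a ratio above 0 (3 under either scaling), and Rrm1, the ribonucleotide reductase subunit, was at -0.06.

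**Figure D5:**
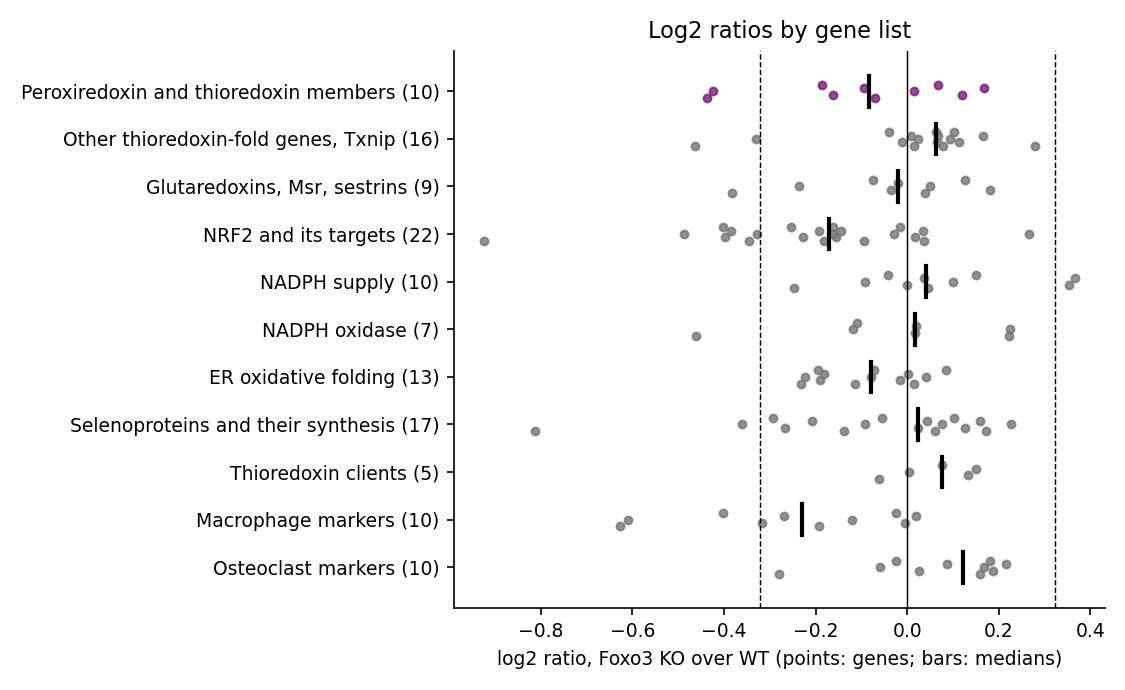
Log2 ratio of Foxo3 KO over WT for each measured gene (points) of the members (purple), 8 further redox lists and 2 lists of cell type markers (grey), with black bars at the medians, dashed lines at a ratio of 5 to 4 and the number of measured genes in brackets. The NRF2 list has a median of -0.17, the macrophage markers one of -0.23, and the osteoclast markers one of 0.12.

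Most cell type markers differed by less than 5 to 4. Of 10 macrophage markers 3 were lower by that ratio or more, as Prdx1 and Prdx4 were, and none was higher by it. In all 9 of the 10 had a ratio below 0, with a median of -0.23 and a summed level of 8398 FPKM in the Foxo3 KO library, against 10342 FPKM in the WT library. Of all measured genes 4.16% were lower by 5 to 4 or more, 42.4% had a ratio below 0 and 57.6% one above it. Of 10 osteoclast markers none passed 5 to 4 in either direction, and 7 had a ratio above 0 and 3 one below, with a median of 0.12. The summed level was 23066 FPKM in the Foxo3 KO library, against 20525 FPKM in the WT library, and most of it came from Acp5, Ctsk and Mmp9 (0.22). The marker farthest from 0 was Itgb3, chosen after its value was seen, at 83.2 FPKM in the Foxo3 KO library, against 101.3 FPKM in the WT library (-0.28). In a culture of mixed cells, fewer cells of a type and less RNA per cell cannot be told apart, and the part of cell make-up in the ratios of Prdx1, Prdx4 and the NRF2 list was not tested. Of 8 neutrophil markers found 7 were measured, 3 with a ratio above 0 and 4 with one below. S100a8, S100a9 and Ngp were at -0.07, 0.05 and -0.15. Retnlg, chosen after its value was seen, was the 1 marker past 5 to 4 and was 2-fold lower, as 0.200% of the measured genes were. It stood at 0 FPKM in the Foxo3 KO library, against 1.01 FPKM in the WT library, close to the minimum of 1 FPKM. The neutrophil list summed to 155 FPKM in the Foxo3 KO library, against 158 FPKM in the WT library. Stromal markers summed to 7.90 FPKM in the Foxo3 KO library, against 8.31 FPKM in the WT library, and none of the T, NK and B cell markers was measured. Prg2, the 1 measured marker of mast cells, basophils and eosinophils, stood at 1.05 FPKM in the Foxo3 KO library, against 1.71 FPKM in the WT library. Pf4, the 1 measured gene of the megakaryocyte list, stood at 26.2 FPKM in the Foxo3 KO library, against 55.7 FPKM in the WT library (-1.06). The rest of that list was near 0, with Itga2b at 0.105 FPKM in the Foxo3 KO library, against 0.138 FPKM in the WT library. Which cells the Pf4 transcripts came from was not tested.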

How the data were processed

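Poly-A RNA of 1 Foxo3 KO and 1 WT culture was made into Illumina TruSeq libraries, per the labels' protocols, and samples were grouped by the genotype label. The deposited values were read as FPKM. The headers and labels state no unit, and FPKM rests on the values, which have decimals, differ in column sum (540601 in the Foxo3 KO and 530701 in the WT library) and below 0.15 FPKM tend to fall with transcript length (Spearman's rho -0.252 over 2224 genes of the WT library, a description across genes). A constant of 0.000001 on every value was subtracted. TopHat, edgeR and mm10 appear in the submitters' processing notes, without roles or versions. The quantifier, the annotation and any scaling between libraries are not stated there. Read totals are not given. Ratios of low values (1661 genes under 0.15 FPKM) gave a Foxo3 KO library 1.40 times as deep as the WT library, so that low genes are coarser in the WT library.

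The measure was the log2 ratio with a pseudocount of 1 FPKM, which understates differences of low genes. With 1 library per group a fixed rule of size replaced a test: 2-fold, and a ratio of 5 to 4. The members and lists were chosen with earlier results of these data known. Named genes were all 10 members, Foxo3, in each redox list the 3 measured genes with the largest ratio in size among those at 10 FPKM or more, in each marker list the 3 most abundant, and genes whose exons overlap a member. A few genes that the rule takes, most of them near 0, are not reported here. Symbols missing from the files were matched through RefSeq synonyms (178 of 187 entries found). Coordinates and exon overlaps, without regard to strand, come from GENCODE M21. Alternatives were 2 scalings, a pseudocount of 0.25 or 5, a minimum of 10 FPKM or none, the mean over members, leaving out the farthest member, and subtracting lowess fits (span 0.3) of the ratio on transcript length and GC share, known for 99.6% of measured genes. The steps were tested on simulated data. Its unchanged genes had a narrower spread than the real ones and could not pass 5 to 4, so it gives no rate of false calls. Python 3.11.15, numpy 2.4.6, pandas 2.3.3, statsmodels 0.14.6 and matplotlib 3.10.9 were used.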

Additional observations from a re-analysis of the deposited data

How the results depend on the processing

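Of 336 recomputed values, 330 stayed within their bounds, which were 1.5 times for counts and, for ratios and medians, the spread of ratios among genes of like level or among all measured genes. All 50 recomputed log2 ratios of the 10 members stayed so: Prdx1 ran from -0.4498 to -0.4218 and Prdx4 from -0.4854 to -0.3928, and both stayed past a ratio of 5 to 4. The bound of a member was 0.1046 or 0.1142, wider than the whole ratio of Prdx6, Txn1, Txn2 and Txnrd1. The alternatives shift these abundant genes little, the filters could not drop a member, and many list counts were 0 throughout. These tallies therefore say little of how firm a ratio is. The median of the members ran from -0.1079 (centred on the median gene) to -0.0701 (without Prdx4). Trimmed-mean scaling divides the Foxo3 KO values by 1.015 and centring by 1.018, so both act nearly as 1 alternative. Summed peroxiredoxin FPKM in the Foxo3 KO library was 86.4% of WT after trimmed-mean scaling. The 6 values that moved are counts of list genes past 5 to 4. With a pseudocount of 5 there were 0 lower thioredoxin-fold genes, 1 higher NADPH gene and 1 lower selenoprotein gene. With a minimum of 10 FPKM there was 1 lower thioredoxin-fold gene and 1 lower selenoprotein gene. With no minimum there was 1 lower folding enzyme gene of the endoplasmic reticulum. These follow from the construction of the pseudocount and the filters. No paired analysis was possible because there is 1 library of each genotype, so leaving out a replicate was not possible either. Depth limits low genes most, and all 10 members stood above 30 FPKM in both libraries.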
